A study of Mus musculus with 4 samples.

Results

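The constitutive proteasome was described through the messenger RNA levels of its genes in mouse liver. Its members were all genes that the annotation of the array names Psma, Psmb, Psmc, Psmd, Psme, Psmf or Psmg followed by a digit, leaving out the immunoproteasome genes Psmb8, Psmb9 and Psmb10. This gave 46 of 18193 genes with a probe set of their own, each represented by its probe set of highest mean signal, and 44 of the 46 passed a filter on low signals. The members comprise 14 subunits of the core particle, 17 subunits of the regulatory particle and 15 other genes. Of these 15, Psmc3ip, a meiotic recombination factor, and Psme3ip1, which encodes a binding partner of the activator Psme3, are taken by the naming rule but are not proteasome subunits. Psme2 is absent from the members, because its probe set is annotated to both Psme2 and Psme2b.

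The livers came from C57BL/6J mice aged 2 months. Injections into the peritoneum held either the aromatic solvent ethylbenzene or phosphate-buffered saline, called PBS here. A first exposure of 2 injections 24 h apart was followed after 7 days by a second exposure, and livers were taken 5 h after it. Ethylbenzene was dosed at 7 mmol per kg. The groups were ethylbenzene then ethylbenzene (E+E, 5 mice), PBS then ethylbenzene (P+E, 5 mice), ethylbenzene then PBS (E+P, 3 mice) and PBS then PBS (P+P, 3 mice). Each group's pooled RNA went on 1 array, so no difference could be set against the spread between animals, no test was made, and the number of arrays limits the precision. The number of mice in a pool follows the second exposure, and the 2 cannot be told apart. Signals are probe set intensities after quantile normalization, ratios are differences of log2(signal + 43.2), and a fold of at least 1.5 (0.58 on the log2 scale) served as a fixed rule of size.

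The proteasome degrades proteins that carry ubiquitin chains. Its core particle is a barrel of alpha rings, which gate the entry, and beta rings, which hold the proteolytic sites. The regulatory particle caps the barrel with a base, whose ATPases unfold the substrate, and a lid, which removes ubiquitin. Dedicated chaperones assemble the base and the core, alternative activators can replace the regulatory particle, and in interferon-stimulated cells the immunoproteasome subunits take the place of the constitutive proteolytic ones. When proteasome activity falls short, the transcription factor Nfe2l1 is known to induce the subunit genes together.

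All 4 arrays carried hepatocyte RNA, with the 4 measured hepatocyte markers Alb, Apoa1, Ttr and Cps1 above the filter level on each array. These are among the brightest probe sets, where quantile normalization sets the values, so their levels are not compared between arrays. The P+P array stood apart. The controls for 18S ribosomal RNA had geometric means of 122 to 182 on the other arrays, against 1872 on P+P, and the Actb controls 22081 to 30540, against 8928 on P+P. The ratio of 3′ to 5′ control signal was 3.48 to 3.84 on the other arrays and 4.55 on P+P for Actb. For Gapdh it was 0.91 to 0.97 and 1.06. The ratio E+E over E+P does not hold the signals of that array, although all 4 arrays were normalized together. Normalized without P+P, that ratio had the same counts of members at least 1.5-fold higher (2) and lower (3). Some markers of other cells moved with the second exposure. The 6 neutrophil markers summed to 6317 on E+E and 3972 on P+E, against 518 on E+P and 1147 on P+P. Most of this was S100a8 and S100a9, at log2 ratios of 3.29 and 3.62 in P+E over P+P and 3.62 and 4.83 in E+E over E+P. Of the neutrophil granule genes, Ngp was at -0.89 in P+E over P+P and 1.33 in E+E over E+P, and Camp at -1.51 and 0.05. The Camp signal on P+E, 48.9, lay below the filter level. Ltf and Elane did not pass the filter. The 7 pancreatic acinar markers summed to 7551 on E+E and 7462 on P+E, against 2454 on E+P and 2972 on P+P, with 6 of 7 at least 2-fold higher in each ratio. The 7 Kupffer cell markers were highest on E+P, at 18589, and lay between 10667 and 12376 on the other arrays. On the PBS arrays 5 (E+P) and 3 (P+P) of the acinar markers lay below the filter level. The 4 endothelial markers summed to between 6342 and 6838, but they moved in opposite directions. Lyve1 had 2218 on E+E and 1987 on P+E, against 170 on E+P and 321 on P+P, while Stab2 (-0.41 in P+E over P+P and -0.26 in E+E over E+P) and Clec4g (-0.42 and -0.51) were below 0 in both. The 5 lymphocyte markers summed to between 418 and 643. None of these lists had a marker at 0, and their part in the proteasome values was not tested. In tissue RNA, fewer cells of a type and less RNA per cell cannot be told apart.

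The subunits of the particle itself differed little between the 4 pools of liver RNA. Of the 31 core and regulatory particle subunits, all past the filter, 29 (93.5%) had a highest signal less than 1.5-fold above the lowest of the 4 arrays. The share was 41.4% of all 11509 genes past the filter and 55.7% of the 6856 genes past a stricter filter at the 75th percentile. The median subunit spanned 1.21-fold, against 1.61-fold for the median gene. The exceptions were Psmb3, a structural beta subunit, at 1.60-fold, and Psmd3, a lid subunit, at 2.06-fold. The 13 other members past the filter were more spread, with 7 within 1.5-fold and a median span of 1.44-fold. These sets also differed in signal level. The subunits lay between 1104 (Psmd3 on E+P) and 15606 (Psmb3 on P+P), and the other members between 137 (Psmb11 on E+P) and 6322 (Psme4 on P+P). The part of signal level in the spans was not tested. On a second probe set, which 15 of the 31 subunits had past the filter, 9 (60%) stayed within 1.5-fold, where all genes had a share of 37.0%.

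**Figure D1:**
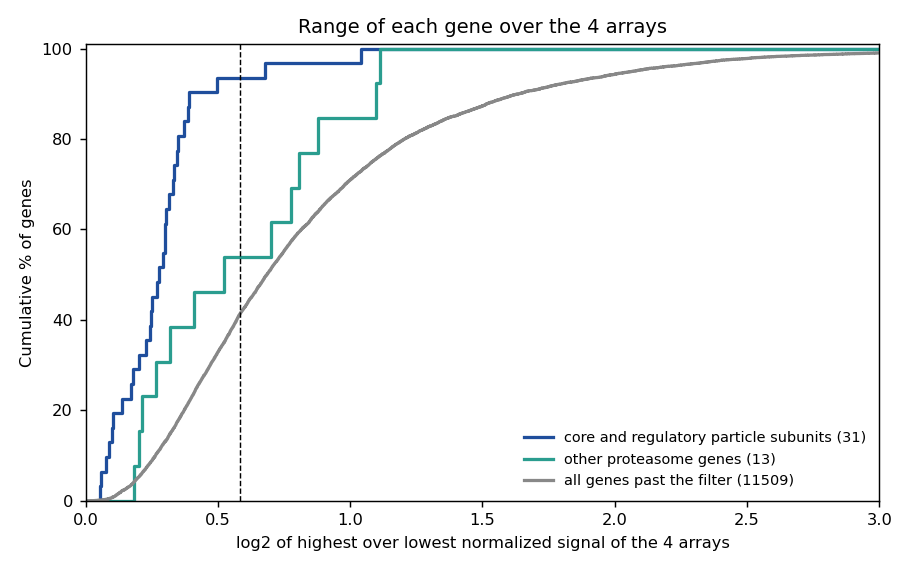
Cumulative percentage of genes (vertical axis) against the log2 of the highest over the lowest normalized signal of the 4 arrays (horizontal axis), for the 31 core and regulatory particle subunits, the 13 other proteasome genes past the filter and all 11509 genes past the filter. The dashed line marks 1.5-fold, which 29 of the 31 subunits lie below.

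Psmb5, which carries the chymotrypsin-like activity of the constitutive core and is the main target of proteasome inhibitor drugs, had signals of 5723 on E+E, 5884 on P+E, 5645 on E+P and 5686 on P+P. Its span of 1.04-fold was among the smallest of all members. Psmc6, a base ATPase, also spanned 1.04-fold on its brightest probe set, with 4170 on E+E, 4258 on P+E, 4099 on E+P and 4222 on P+P. Its second probe set was not level, with 1805 on E+E and 1750 on P+E, against 1067 on E+P and 1158 on P+P. It gave log2 ratios of 0.577 in P+E over P+P and 0.735 in E+E over E+P, and a dimmer probe set gave 0.57 and -0.45. Psmd1 and Psmd2, the scaffolds of the base, each spanned 1.06-fold.

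The difference with the second exposure was read from P+E over P+P, after a first exposure to PBS, and from E+E over E+P, after one to ethylbenzene. The 2 ratios share no array, and pairs of values follow this order. The median log2 ratio of the 44 members was -0.00 and -0.00, against -0.07 and -0.05 for all genes past the filter, and their interquartile range was 0.32 and 0.30, against 0.72 and 0.74. At least 1.5-fold higher were 1 of 44 members in the first ratio, where 14% of all genes were, and 2 in the second, where 15.3% were. At least 1.5-fold lower were 4 members in the first, where 17.3% of all genes were, and 3 in the second, where 16.8% were. Of the genes past the 75th percentile filter, 11.2% and 11.7% were higher and 13.1% and 13.3% lower. At least 2-fold apart were 0 members in the first ratio, where 6.63% of all genes were higher and 6.86% lower. In the second it was 1 member, Psmd3, which was higher, where 7.04% of all genes were higher and 6.86% lower. The 2 ratios had the same sign for 25 of 44 members, where they did for 65.1% of all genes.

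The members that were at least 1.5-fold lower were assembly chaperones and an activator, with no subunit of the core or regulatory particle among them. Psmd5, a chaperone that holds base ATPases during assembly, had signals of 985 on E+E and 1220 on P+E, against 1918 on E+P and 2181 on P+P. Both ethylbenzene signals lay below both PBS signals, at log2 ratios of -0.82 and -0.93, or 1.76-fold and 1.91-fold lower. Psmg3, a subunit of a chaperone that builds the alpha ring of the core, had 618 on E+E and 574 on P+E, against 1092 on E+P and 1028 on P+P. Its ratios of -0.80 and -0.78 were nearly equal. Psme1, the alpha subunit of an interferon-inducible activator that opens the core without ATP, had 3807 on E+E and 3817 on P+E, against 5545 on E+P and 6222 on P+P. Its ratios were -0.70 and -0.54, the second short of 1.5-fold. In both ratios at least 1.5-fold lower were Psmd5 and Psmg3, 2 of 44 members, where 6.69% of all genes past the filter were. Psmg3 has a second, dim probe set, and with its probe sets averaged its second ratio was -0.56, short of 1.5-fold.

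Psmg4, the partner of Psmg3, had 396 on E+E and 344 on P+E, against 485 on E+P and 634 on P+P, with ratios of -0.81 and -0.27. Averaged with its other probe set, which did not pass the filter, they became -0.33 and 0.05. Psmg1, whose product guides alpha subunits into the ring, had 1920 on E+E and 2181 on P+E, against 2777 on E+P and 2380 on P+P, with ratios of -0.12 and -0.52. Psmg2, the partner of Psmg1, had 329 on E+E, 595 on P+E, 548 on E+P and 562 on P+P. It was low on E+E alone, with ratios of 0.08 and -0.67, and its second probe set gave 0.33 and 0.53. On their brightest probe sets the 4 core chaperones had medians of -0.46 and -0.59. Above 0 were 1 and then 0 of the 4, where 44.4% and 45.8% of all genes past the filter were. The value of Psmg2 in this count depends on the probe set, as given above. That of Psmg4 in E+E over E+P turned above 0 only on averaging with a probe set that did not pass the filter. The other base chaperones lay near 0 on their brightest probe sets, Psmd9 at 0.08 and -0.19, and Psmd10, an oncoprotein also called gankyrin, at -0.07 and 0.09. A dim second probe set of Psmd9 gave -0.83 and 0.94, with a signal on P+E, 61.35, below the filter level.

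**Figure D2:**
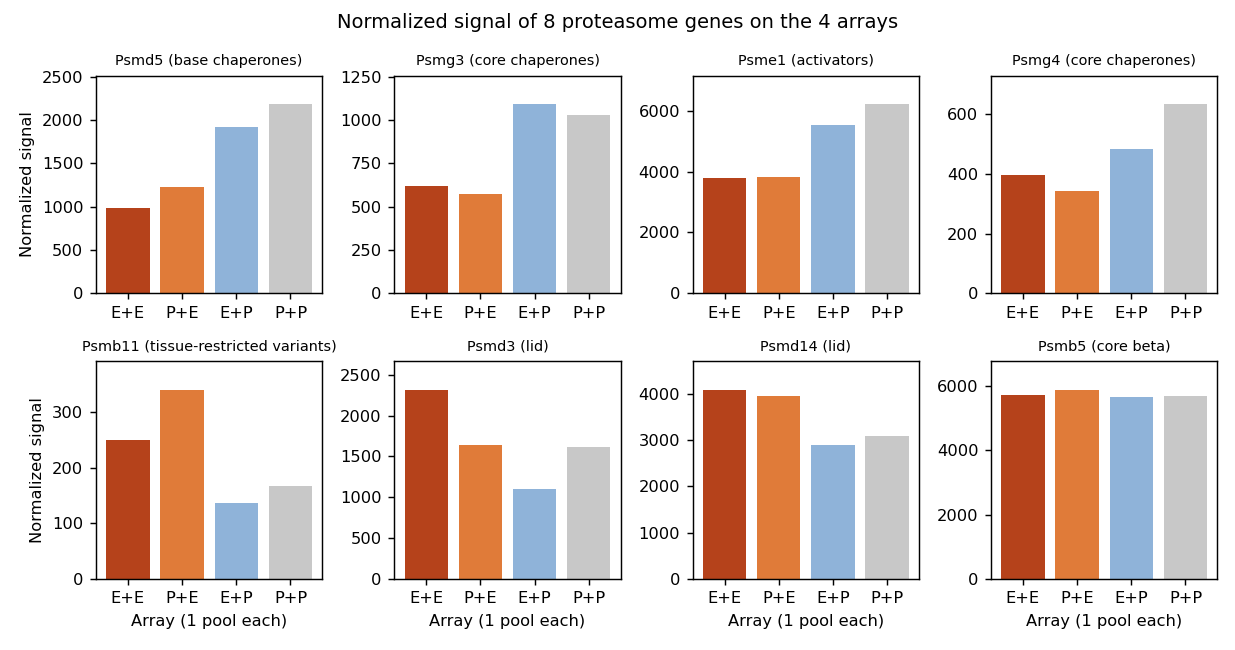
Normalized signal (vertical axis, from 0) of 8 proteasome genes on the arrays E+E, P+E, E+P and P+P (horizontal axis, 1 pool each, no error bar). Psmd5, Psmg3, Psme1 and Psmg4 were lower on both ethylbenzene arrays than on both PBS arrays, Psmb11 and Psmd14 higher, Psmd3 was highest on E+E and lowest on E+P, and Psmb5 was level.

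The promoters of 5 members are shown because they stand for members that were lower, higher or level: Psmd5, Psmg3 and Psme1 had the lowest mean of both second-exposure ratios, Psmd14 was among the highest, and Psmb5 was level. The sequences are from RefSeq (GRCm38.p6), 250 bases before to 50 after the annotated start, 5′ to 3′. Capitals mark, on either strand, the GC box GGGCGG, the CCAAT box, the antioxidant response element core TGACNNNGC, which Nfe2l1 and Nfe2l2 can bind, and the heat shock element core GAANNTTC. The windows are chr2:34870913-34871212, minus strand (Psmd5), chr5:139826845-139827144, minus strand (Psmg3), chr14:55578244-55578543, plus strand (Psme1), chr2:61711444-61711743, plus strand (Psmd14) and chr14:54617946-54618245, minus strand (Psmb5).
Psmd5: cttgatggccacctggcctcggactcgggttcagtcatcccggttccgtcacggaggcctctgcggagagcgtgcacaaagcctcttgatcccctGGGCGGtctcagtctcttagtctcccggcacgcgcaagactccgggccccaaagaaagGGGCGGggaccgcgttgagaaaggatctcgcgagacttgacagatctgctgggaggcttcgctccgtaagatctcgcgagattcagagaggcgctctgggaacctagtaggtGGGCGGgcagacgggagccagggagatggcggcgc
Psmg3: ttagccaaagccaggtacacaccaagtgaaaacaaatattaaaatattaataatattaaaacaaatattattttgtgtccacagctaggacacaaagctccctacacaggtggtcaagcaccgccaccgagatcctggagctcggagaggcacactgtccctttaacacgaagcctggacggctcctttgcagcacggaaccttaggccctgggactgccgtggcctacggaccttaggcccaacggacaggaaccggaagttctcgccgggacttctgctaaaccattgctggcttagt
Psme1: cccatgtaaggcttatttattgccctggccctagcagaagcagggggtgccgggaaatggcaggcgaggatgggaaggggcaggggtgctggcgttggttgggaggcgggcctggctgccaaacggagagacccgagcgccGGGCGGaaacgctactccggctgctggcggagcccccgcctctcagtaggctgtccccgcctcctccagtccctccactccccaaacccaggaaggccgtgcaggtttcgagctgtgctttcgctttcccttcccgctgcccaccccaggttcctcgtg
Psmd14: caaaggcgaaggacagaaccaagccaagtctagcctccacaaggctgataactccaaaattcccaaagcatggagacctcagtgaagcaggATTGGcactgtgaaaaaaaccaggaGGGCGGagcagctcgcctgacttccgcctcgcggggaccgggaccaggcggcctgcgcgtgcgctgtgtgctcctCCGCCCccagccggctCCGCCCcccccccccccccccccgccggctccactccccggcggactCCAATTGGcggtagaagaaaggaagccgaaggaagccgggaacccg
Psmb5: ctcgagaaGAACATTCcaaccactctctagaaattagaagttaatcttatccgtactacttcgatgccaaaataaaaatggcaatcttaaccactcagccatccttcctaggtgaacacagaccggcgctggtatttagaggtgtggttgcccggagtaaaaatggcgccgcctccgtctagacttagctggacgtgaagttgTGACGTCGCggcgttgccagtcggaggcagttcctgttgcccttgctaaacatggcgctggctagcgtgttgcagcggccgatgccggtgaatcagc

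Psmd5 holds 3 GC boxes and Psme1 1, and Psmg3 holds none of the motifs searched. Psmd14 holds 3 GC boxes and 3 CCAAT boxes, of which 2 overlap on opposite strands. Psmb5 holds 1 antioxidant response element core and 1 heat shock element core. Sequences were found for 38 of the 46 members, with 41 promoters in all. The GC box was in 22 of these 41 (53.7%), against 35.7% of all 32851 promoters, the CCAAT box in 15 (36.6%), against 37.4%, the antioxidant response element core in 6 (14.6%), against 12.4%, and the heat shock element core in 2 (4.88%), against 7.86%. A match describes these letters only and is no evidence of binding.

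Of the other activators, Psme4, a large single-chain activator of nuclear proteasomes, was at -0.28 and -0.23, with 5063 on E+E and 5181 on P+E, against 5957 on E+P and 6322 on P+P. Its 2 next brightest probe sets were smaller in size, between -0.12 and 0.00. Psme3, a nuclear activator, was at -0.20 and 0.16. Psme2 is the beta partner of Psme1. The probe set that it shares with Psme2b had 3745 on E+E and 4285 on P+E, against 5563 on E+P and 4116 on P+P, at 0.06 and -0.57. Psmf1, which inhibits the core particle in vitro, was at -0.21 and 0.29. Its other probe sets past the filter gave 0.27 and 0.34, 0.13 and 0.10, and 0.12 and -0.39.

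Psmb11, the proteolytic beta subunit of the thymus-specific proteasome, reached 1.5-fold higher in both ratios, as no other member did, at 0.87 and 0.71. Its signals were dim, with 250 on E+E and 341 on P+E, against 137 on E+P and 167 on P+P, where the filter level was 120.05. Across all genes past the filter, 6.57% were at least 1.5-fold higher in both. The testis-specific alpha subunit Psma8 lay below the filter level on every array, at 7.0 to 97.0, and no fold is given for it. Psmc3ip did not pass the filter either, at 77.1 to 174.

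Within the regulatory particle the lid held the highest members. Psmd14, the deubiquitinase of the lid, had 4083 on E+E and 3950 on P+E, against 2881 on E+P and 3080 on P+P. Both ethylbenzene signals were above both PBS signals, at ratios of 0.35 and 0.50, short of 1.5-fold. Psmd3 had 2315 on E+E, 1635 on P+E, 1104 on E+P and 1620 on P+P. Its ratios were 0.01 and 1.04, since P+E and P+P were alike and E+E and E+P lay on either side of them. In E+E over E+P all 8 lid genes were above 0, where 45.8% of all genes were, with a median of 0.18. With the deposited signals 7 of 8 were, and with signals scaled to a common 75th percentile 5 of 8. The lowest signal was on E+P for 7 of the 8, where it was for 2517 of all 11509 genes past the filter. With the deposited signals it was on E+E for Psmd8 and on P+E for Psmd13. In P+E over P+P the lid median was 0.02, and it turned to -0.08 with that scaling and to -0.02 with the deposited signals.

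Psmd11, a lid subunit, was represented by 6 probe sets past the filter. The brightest gave 0.35 and 0.02. The next 3 by signal gave 0.46 and 0.40, 0.62 and 0.71, and 0.86 and 0.39, all higher on the ethylbenzene arrays. On the second brightest, the signals were 5285 on E+E and 5321 on P+E, against 4001 on E+P and 3845 on P+P. The 2 dimmest gave 0.66 and -0.66, and -0.20 and 0.64.

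The 6 base ATPases, Psmc1 to Psmc6, were all above 0 in P+E over P+P, where 44.4% of all genes were, with a median of 0.20 and a range of 0.01 to 0.30. With the deposited signals 5 of 6 were, and with the 75th percentile scaling 4 of 6. In E+E over E+P 3 of 6 were above 0, with a median of -0.01. All 6 had their highest signal on P+E, and so did the 3 other base subunits, Psmd1, Psmd2 and the ubiquitin receptor Psmd4, where 22.3% of all genes did. Some margins were small, such as that of Psmc6, with 4258 on P+E, against 4222 on P+P. With the deposited signals Psmc6 was highest on P+P (4321, against 4197 on P+E) and Psmd1 on E+P (4051, against 3971 on P+E). Psmc4 had the highest mean of both ratios among the ATPases, at 0.30 and 0.20, with 4716 on E+E and 5073 on P+E, against 4113 on E+P and 4121 on P+P. None of the 9 base genes reached 1.5-fold in either ratio on its brightest probe set. The second probe set of Psmc6 did so in E+E over E+P, at 0.735.

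**Figure D3:**
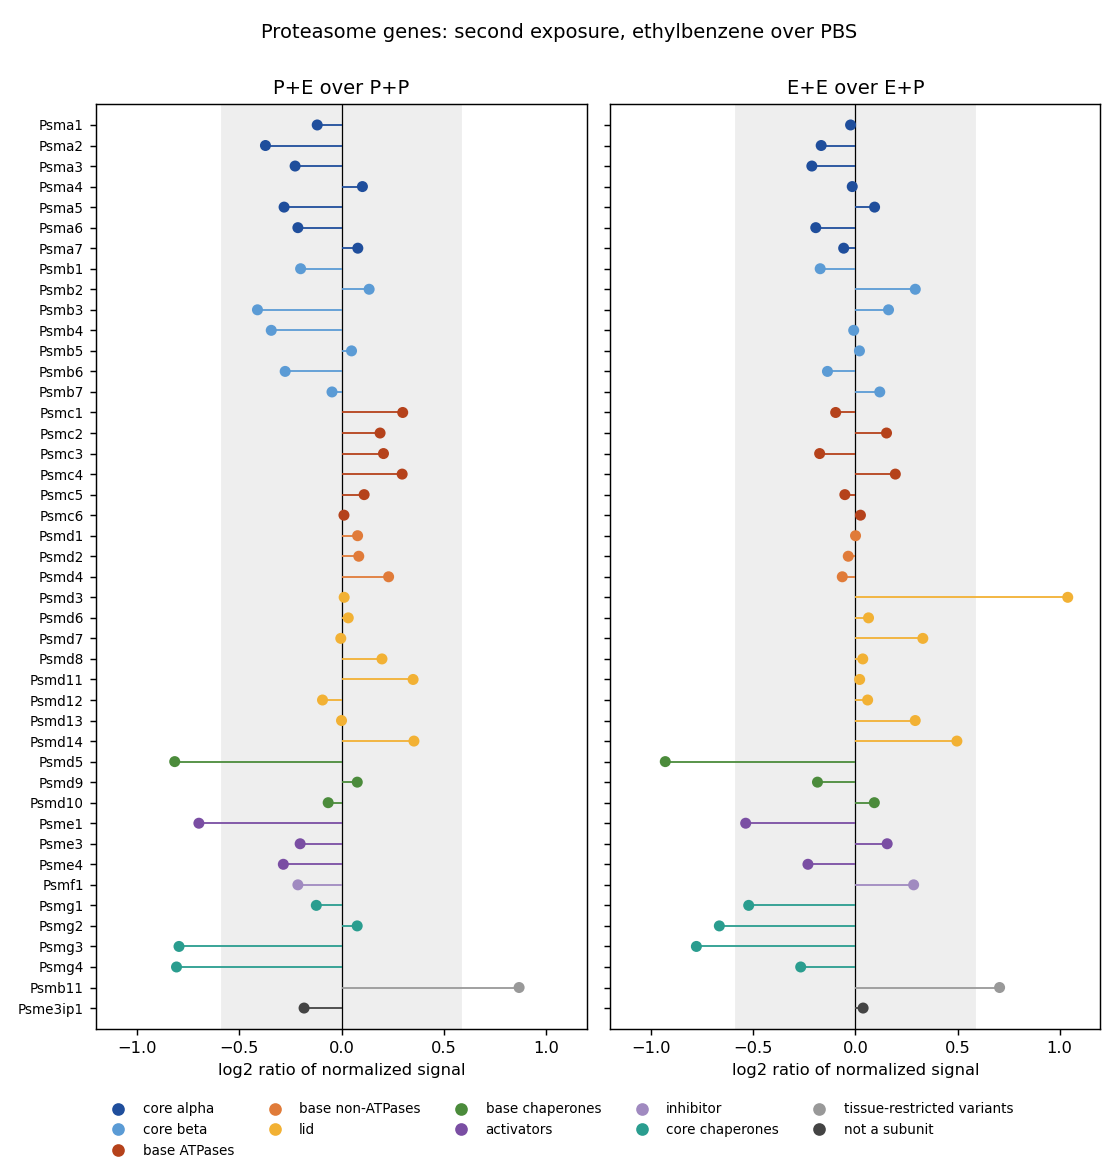
Log2 ratios of normalized signal (horizontal axis) of the 44 proteasome genes past the filter (rows, coloured by class), for P+E over P+P (left) and E+E over E+P (right), 1 array per group. The grey band marks less than 1.5-fold, outside which lie Psmd5, Psmg3, Psmg4, Psme1 and Psmb11 on the left and Psmd5, Psmg3, Psmg2, Psmb11 and Psmd3 on the right.

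The core particle leaned the other way in the first ratio. Its 14 subunits had a median of -0.21 in P+E over P+P, with 4 of 14 above 0, against 0.11 for the 17 regulatory particle subunits, with 14 of 17 above 0. The counts depended on the scaling, with 4 of 14 and 11 of 17 on the deposited signals and 1 of 14 and 8 of 17 with the 75th percentile scaling. Of all genes past the filter, 44.4% were above 0. In E+E over E+P the medians were -0.02 and 0.04, with 5 of 14 and 12 of 17 above 0, where 45.8% of all genes were, and 4 of 14 and 7 of 17 with the 75th percentile scaling. With that scaling the regulatory medians turned to -0.02 in both ratios, and the core was at -0.31 and -0.08. The difference of the medians, core minus regulatory, was -0.32 in the first ratio and -0.06 in the second. No core subunit reached 1.5-fold in either on its brightest probe set. Dimmer ones past the filter did so for Psma1 (0.69) and Psmb1 (0.73, and -0.93 on another) in the first ratio and Psma6 (0.59) in the second. The lowest on the brightest probe sets were Psmb3 (-0.41 and 0.16), Psma2 (-0.37 and -0.17) and Psmb4 (-0.34 and -0.01), and the highest was Psmb2 (0.14 and 0.29). The second probe set of Psmb4 gave -0.28 and -0.54. Psma2 had 5003 on E+E and 4671 on P+E, against 5625 on E+P and 6060 on P+P, and it was lower on both ethylbenzene arrays. Among the proteolytic subunits, Psmb6, the caspase-like one, was at -0.28 and -0.14, Psmb7, the trypsin-like one, at -0.05 and 0.12, and Psmb5 at 0.05 and 0.02.

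Set out by array, the core difference went with P+P. The deviation of each gene from its own mean over the 4 arrays had a median over the core subunits of -0.06 on E+E, -0.01 on P+E, -0.01 on E+P and 0.14 on P+P. For the regulatory particle it was -0.00, 0.10, -0.06 and -0.05 in the same order. P+P held the highest signal for 9 of 14 core subunits, where it did for 28.5% of all genes, and P+E for 12 of 17 regulatory subunits, where it did for 22.3%. Of these regulatory subunits, Psmc6 and Psmd6 were highest on P+P and Psmd1 on E+P with the deposited signals. The P+P array is the one with the high 18S ribosomal RNA signal, and its part in this difference was not tested. With all probe sets of a gene averaged, those below the filter included, the core median was 0.00 in P+E over P+P and 0.02 in E+E over E+P. On the second probe sets, which only some core subunits had past the filter, it was -0.03 and 0.02. In P+E over P+P these were split. They gave -0.22 (Psma3), -0.18 (Psma6), -0.29 (Psmb3) and -0.28 (Psmb4), but 0.69 (Psma1), 0.12 (Psma5), 0.28 (Psma7) and 0.73 (Psmb1). Those of Psma1 (179 to 316), Psma3 (199 to 352) and Psmb1 (433 to 748) were dim, while the others had signals of at least 2593 (Psma7 on P+P). The core lean was thus not seen in the medians with these 2 choices of probe set, which include dim probe sets.

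**Figure D4:**
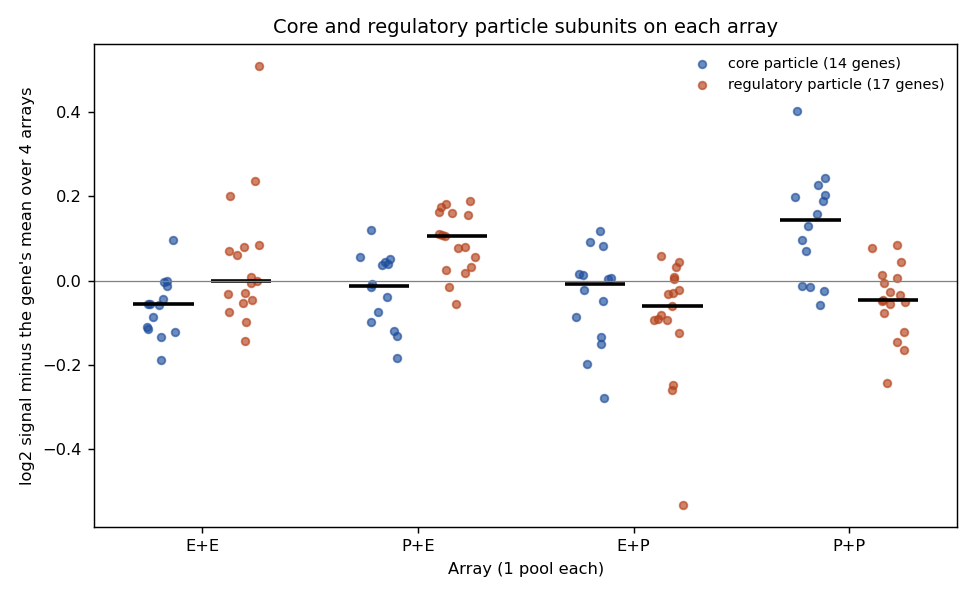
Log2 signal of each core (14) and regulatory particle (17) subunit minus that gene's mean over the 4 arrays (vertical axis), by array (horizontal axis, 1 pool each), with points spread sideways for legibility and bars at the medians. The core median stands at 0.14 on P+P and between -0.06 and -0.01 on the other arrays.

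For the first exposure the ratios were E+P over P+P, where PBS followed, and E+E over P+E, where ethylbenzene followed, and pairs now take this order. These 2 ratios share no array either, but each shares an array with both ratios above. The medians of the 44 members were -0.07 and -0.04, against -0.01 and -0.00 for all genes past the filter. At least 1.5-fold higher were 0 and 0 members, where 7.83% and 11% of all genes were, and at least 1.5-fold lower 1 and 1, where 8.85% and 10.5% were. Of the genes past the 75th percentile filter, which 43 of the 44 members passed, 3.19% and 4.54% were higher and 3.6% and 4.77% lower. The 1 member of the first ratio was Psmb3, with 9726 on E+P, against 15606 on P+P, at -0.68. Its other ratio was -0.11, with 10887 on E+E, against 11722 on P+E. The P+P signal was the high one of the 4, and its second probe set gave -0.45 and 0.00. The 1 member of the second ratio was Psmg2, at -0.03 and -0.78, for which the second probe set gave -0.07 and 0.13.

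By class, the core particle was at -0.19 and -0.04 and the regulatory particle at -0.02 and -0.05. The base ATPases were at -0.01 and -0.14, the lid at -0.12 and 0.01, and the core chaperones at 0.02 and -0.04. Psmd5, at -0.18 and -0.30, and Psme1, at -0.16 and -0.00, were closer to 0 than in the second-exposure ratios, and so was Psmg3 at 0.08 and 0.10. Of the 44 members, 24 had the same sign in both first-exposure ratios, where 48.9% of all genes did.

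**Figure D5:**
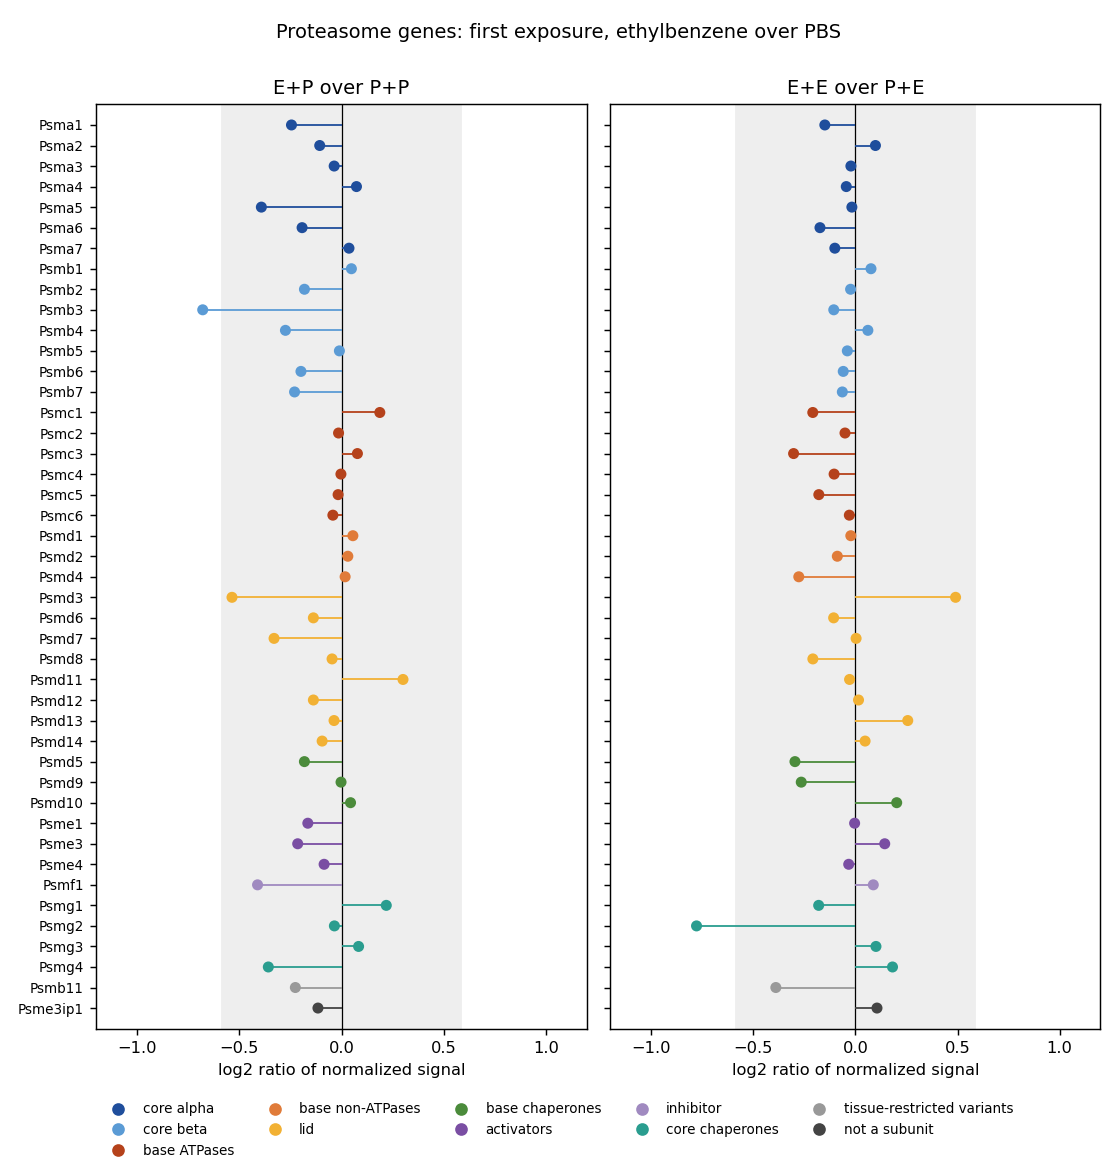
Log2 ratios of normalized signal (horizontal axis) of the 44 proteasome genes past the filter (rows, coloured by class), for E+P over P+P (left) and E+E over P+E (right), 1 array per group. The grey band marks less than 1.5-fold, and only Psmb3 on the left and Psmg2 on the right lie outside it.

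The difference E+E over E+P minus P+E over P+P had a median of 0.02 over the members. It was at least 1.5-fold in size for 2 of 44, Psmd3 (1.03) and Psmg2 (-0.74), where it was for 32.5% of all genes past the filter and 18% past the 75th percentile filter. Psmb3 (0.57) and Psmg4 (0.54) came next. For Psmd5 it was -0.11, for Psmg3 0.02 and for Psme1 0.16. This difference holds the error of all 4 arrays.

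Other genes of the pathway were taken from lists of known members, and pairs return to the order P+E over P+P and E+E over E+P. The counts of these short lists stand beside 14% and 15.3% of all genes at least 1.5-fold higher and 17.3% and 16.8% lower. The 3 immunoproteasome genes had medians of -0.36 and 0.28, and none reached 1.5-fold in either ratio. Psmb10, which replaces Psmb7, had 1012 on E+E and 1084 on P+E, against 1438 on E+P and 1401 on P+P, so that both ethylbenzene signals were lower (-0.36 and -0.49). Psmb8, which replaces Psmb5, was at 0.07 and 0.28, and Psmb9, which replaces Psmb6, at -0.40 and 0.31.

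Of 7 proteasome partners with other names, 0 were at least 1.5-fold higher in either ratio and 1 was lower in each. Akirin2, which carries proteasomes into the nucleus, had 953 on E+E and 993 on P+E, against 1601 on E+P and 1414 on P+P, at -0.49 and -0.72. Ecpas, a proteasome adaptor, was at -0.45 and -0.25, and the small lid subunit Sem1 at 0.04 and 0.28. The 1 gene lower in P+E over P+P was Usp14, a deubiquitinase of the regulatory particle, at -0.64 and 0.49.

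The list of 8 transcriptional regulators tied to proteasome genes had 1 and 1 at least 1.5-fold higher, where 14% and 15.3% of all genes were, and 3 and 1 lower, where 17.3% and 16.8% were. Stat3, the transcription factor of interleukin signalling, had 7549 on E+E and 6923 on P+E, against 2335 on E+P and 1466 on P+P, at 2.21 and 1.67. Foxo3, which drives proteolysis genes in muscle, had 431 on E+E and 686 on P+E, against 1411 on E+P and 1610 on P+P, at -1.18 and -1.62. Nfe2l2 was at -0.61 and -0.49. Nfe2l1, chosen after its values were seen, for its known role, was at 0.26 and -0.42.

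Among 10 shuttle and unfoldase genes, 3 and 1 were at least 1.5-fold higher, where 14% and 15.3% of all genes were, and 0 and 1 lower, where 17.3% and 16.8% were, with medians of 0.21 and 0.15. Zfand5, a zinc finger protein that stimulates the proteasome, had 4073 on E+E and 4156 on P+E, against 2633 on E+P and 2123 on P+P, at 0.96 and 0.62. Nploc4, a cofactor of the unfoldase Vcp, was at 0.89 and 0.36. Of 25 E1 and E2 enzymes, which charge and pass on ubiquitin, 1 and 1 were higher and 2 and 2 lower, below the shares of all genes, with medians of -0.06 and -0.12. Ube2r2 was lower in both (-0.73 and -0.88), and Ube2b was at 0.65 and 0.48. Of 9 ubiquitin ligases, 0 and 1 were higher and 1 and 1 lower. Of 9 genes of antigen processing, 0 and 2 were higher and 1 and 0 lower, with the peptide-trimming Erap1 at -0.70 and -0.56. The ubiquitin genes themselves were not analysed here.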

How the data were processed

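Pooled RNA was measured on 4 arrays, 1 per group, grouped by the sample titles. The deposited values are linear probe set intensities for 45101 probe sets on each array. The software behind them is not given in the sources used here. On every array they average 500.0 once 2% of probe sets are removed at each end, a common scale set by the authors. Here the intensities were quantile-normalized together and turned into log2(signal + 43.2), where 43.2 is the 25th percentile of all signals. Such ratios understate the differences of dim genes. Genes were taken from 34945 probe sets with 1 symbol in the platform annotation, and 34741 matched a RefSeq table (GRCm38.p6) used for current names. The filter kept 11509 genes with a mean log2 value at or above the median of the array (signal 120.05). Members and lists were chosen with earlier results of these data known. By rule, the 8 highest and 8 lowest members by mean second-exposure ratio were to be described singly and the others by class, with up to 4 genes of each pathway list. Of the 8 highest, Psmc2 and Psmd7 entered the Results only within their classes. In P+E over P+P and E+E over E+P they were at 0.19 and 0.15 (Psmc2) and -0.004 and 0.33 (Psmd7). Several members outside this rule, such as Psmb5 and Psmc6, were also described singly. Usp14 and Nfe2l1 were added after their values were seen. Alternatives covered normalization, pseudocount, filter and probe set choice. Leaving out P+P and the 2 non-subunits was added after the data were seen. The steps were tested on simulated arrays. Python 3.11.15, numpy 2.4.6 and pandas 2.3.3 were used.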

Additional observations from a re-analysis of the deposited data

Results flagged for a closer look

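Psmd3 and Psmg2 had ratios of opposite sign under the same contrast and were at least 1.5-fold apart, a difference that was not tested because each group is 1 array. For Psmd3 the first-exposure ratio was 0.49 in mice given ethylbenzene second and -0.54 in mice given PBS second, a difference of 1.03, and it has no second probe set. For Psmg2 the second-exposure ratio was -0.67 in mice given ethylbenzene first and 0.08 in mice given PBS first, a difference of -0.74, and the second probe set gave a difference of 0.20.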

How the results depend on the processing

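Each group is 1 array of pooled RNA, so no replicate could be left out, and precision is limited by the number of arrays. No paired analysis was possible because no group has replicates. Psmd5 was at least 1.5-fold lower in both second-exposure ratios under all alternatives that gave it a value (-0.77 or lower in P+E over P+P and -0.87 or lower in E+E over E+P), as was Psme1 in P+E over P+P (-0.81 to -0.68), and Psmd3 stayed at least 1.5-fold higher in E+E over E+P (0.96 to 1.07). Where values moved below, the cause was not tested.

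With signals scaled to a common 75th percentile, the medians of P+E over P+P and E+E over E+P were -0.12 and -0.07 for the members, -0.31 and -0.08 for the core and -0.019 and -0.018 for the regulatory particle, while those of all genes were -0.11 and -0.07, and 5 members were at least 1.5-fold lower in E+E over E+P. With the deposited signals, and with a pseudocount of 1, 1 member was at least 2-fold apart in P+E over P+P. With a pseudocount at the median signal, E+E over E+P had 1 member at least 1.5-fold higher and 0 at least 2-fold apart, and Psmb11 was at 0.49. With the 75th percentile filter, 0 members were at least 1.5-fold higher in P+E over P+P and 1 in E+E over E+P. Without a filter, 2 members were at least 1.5-fold higher in P+E over P+P, 2 were at least 2-fold apart in E+E over E+P, 1 was higher, 2 lower and 1 at least 2-fold apart in E+P over P+P, 2 were lower in E+E over P+E, and the median of the tissue-restricted Psmb11 and Psma8 in E+E over E+P turned to -0.39.

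With the probe sets of a gene averaged, the core median of P+E over P+P was 0.0012, and members at least 1.5-fold higher and lower numbered 4 and 1 in E+E over E+P, 1 and 0 in E+P over P+P and 4 and 0 in E+E over P+E. Without probe sets that carry a suffix, 3 members were higher in P+E over P+P, 1 higher and 0 lower in E+P over P+P and 1 higher in E+E over P+E.

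On second probe sets, which 20 members had past the filter, member medians were 0.12 in P+E over P+P and 0.14 in E+E over E+P. Regulatory particle medians were 0.29 and 0.26, and the core was at -0.032 in P+E over P+P and 0.063 in E+P over P+P. Members higher and lower numbered 2 and 1 in P+E over P+P, 1 and 0 in E+P over P+P and 2 and 0 in E+E over P+E, where 1 was at least 2-fold apart, and 0 were lower or at least 2-fold apart in E+E over E+P. Of the particle subunits 9 stayed within 1.5-fold. Psmg2, the 1 core chaperone with such a probe set, turned to 0.53 in E+E over E+P, which is then also the class median, to 0.13 in E+E over P+E and to 0.20 in the difference of the second-exposure ratios.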
